A study of Mus musculus with 415 samples.

Results

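Accessible chromatin marks the parts of the genome where regulatory proteins can reach DNA. Such regions crowd around genes, and promoters of broadly used genes tend to be open in many cell types. Long stretches between genes hold few of them, and the accessible elements found there include distal enhancers and sites bound by the insulator protein CTCF, with enhancers being more restricted to particular cell types than promoters. The regions described here are those that lie alone, with no other region of the same table nearby.

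An isolated region was an autosomal region with no other region of the table within 250 kb of either edge, a width under 2000 bp, and signal in under 50% of the cells. By this rule 530 of the 23180 regions were isolated, which is 2.34 of every 100 among the 22681 autosomal regions. The rule used the positions in the table, the width and the share of open cells, so those properties are given as description. Isolation is relative to this table alone, because any region left out of it would shorten a gap.

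The cells came from the mouse embryonic stem cell line R1. They formed embryoid bodies, small floating aggregates, in hanging drops over 48 hours, followed by 4 days of retinoic acid at 0.5 mM according to the labels. Retinoic acid, made in the body from vitamin A, directs early embryonic cells to differentiate. Each cell was captured on a Fluidigm C1 chip and tagmented with Tn5, a transposase that cuts open chromatin and attaches sequencing adapters. All cells carry the same treatment and time point, no untreated or undifferentiated cells are among them, and the labels name no separate cultures, so the series is 1 sample and no p-value was computed from cells or from regions.

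Open means here that the deposited signal of a region in a cell was above 0. Signal is given below in fragments, the unit being the commonest value above 0 in the table. Cells had 756 to 12267 open regions (median 3928), and in the shallow ones most regions went unsampled whether or not they were accessible. The coordinates are those of the table, on the mouse build mm9. The table names no genes, and neither genes nor DNA sequence on mm9 were used here, so regions are identified by position.

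Isolated regions were open in few cells. The median isolated region had signal in 11.9% of the cells (quartiles 9.16% and 18.6%), and the extremes were 7.47% and 44.8%. The 21445 other autosomal regions under the same width and share limits had a median of 14.2%. Of the isolated regions, 34.7% were open in under 10% of cells, against 27.6% of the others, and 66 (12.5%) were open in at least 25% of cells, against 20.9%. At the bottom of the range, 24 isolated regions were open in 31 cells, the smallest number that any region of the table has.

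The isolated region open in most cells was chr16:52452879-52453657, with signal in 44.8% of the cells (exact 95% interval 39.97% to 49.7%). In those cells it held from 0.459 to 4.43 fragments with a median of 1. The next was chr7:66483565-66485025, open in 43.6% (38.8% to 48.5%) at up to 7.49 fragments. The intervals of these 2 regions overlap almost entirely. Both were read in the same cells and no paired comparison was made, so their order is not established. The same holds for the region that followed, chr1:3660705-3662360, the first of the table on chromosome 1. That region was open in 42.7% (37.8% to 47.6%) with a median of 1.45 fragments, the highest median of any isolated region. It has no neighbour towards the chromosome start and lies 801.6 kb from the next region. The regions chr12:33063344-33064796 and chr1:71148929-71149889 were open in 39.04% (34.3% to 43.9%) and 38.6% (33.9% to 43.4%) of the cells. None of these 5 widely open regions differed between the cell clusters described below. Calls were rare at such shares: above 24.3% of cells, 11.6% of all isolated and 4.11% of other regions differed. Intervals here cover the counting of cells only.

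Signal within open cells was close to that of other regions. The median isolated region held 1 fragment in an open cell, the medians ran from 0.736 to 1.45 fragments, and the largest value in any cell was 10.7 fragments. None of the isolated regions reached a median above 2.5 fragments. A median of 24.2% of the open values exceeded 1 fragment, against 22.4% for other regions weighted to the same shares of open cells.

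The nearest other region lay at a median distance of 363.7 kb from an isolated region, with quartiles of 290.7 kb and 545.9 kb, against 19.8 kb for the other regions within the limits. A median of 7 other regions lay within 1 Mb of an isolated region, against 27 around the others, and 37 isolated regions had none within 1 Mb. The most remote was chr1:148344549-148345362, which lies 2493 kb from the region before it and 3230 kb from the region after it. It was open in 35 cells (8.43%, 5.94% to 11.5%) with 0.25 to 3.72 fragments. The others at the top were chr12:62623895-62624872, with gaps of 2303 and 3092 kb and signal in 49 cells (11.8%, 8.86% to 15.3%), and chr16:81200710-81201354, with gaps of 2269 and 3534 kb and signal in 40 cells (9.64%, 6.98% to 12.9%). None of these 3 differed between clusters by the rule given below, where 39.4% of all isolated regions did. The most remote was open in 15.8% of cells of cluster 2 and 5.67% of the rest. Its depth-scaled ratio of 2.06 passed the 2-fold limit, but the intervals overlapped.

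Isolated regions often followed each other along a chromosome. The gap beside an isolated region also counts for its neighbour, which therefore already meets part of the rule. This favours such series, and the number to expect from it was not computed. In all, 56.4% of them stood in series of at least 2 consecutive isolated regions, and for 32.8% the nearest region was itself isolated. There were 83 series of 2, 21 of 3, 15 of 4 and 2 of 5. One series of 5 spanned 4.71 Mb on chromosome 12 (chr12:93530837-98242968). Its members were open in 31 to 94 cells, and 2 of them, chr12:95662491-95663052 and chr12:98242422-98242968, were higher in cell cluster 2 as defined below, the latter also lower in cluster 3. The other series of 5 spanned 1.41 Mb on chromosome 7 (chr7:98035243-99441882), and its last member, chr7:99440953-99441882, was higher in cluster 2 and lower in cluster 3. These series were picked for their length after the values were seen.

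The limits of the rule cut through continuous ranges. Just inside the distance limit were the neighbours chr5:12383112-12383970 and chr5:12634095-12634827, which are 250.1 kb apart and open in 59 and 36 cells. Just outside it were chr14:78686006-78686407, with a gap of 249.8 kb and 36 open cells, and chr18:9707449-9708392, with a gap of 249.4 kb and 55 open cells. Of 542 autosomal regions that met the distance limit, 11 were left out for width and 1 for the share of cells. That one was chr8:75876776-75878297, open in 51.1% of cells (46.2% to 55.99%). The narrowest left out for width were chr1:176431782-176433811 at 2029 bp and chr9:8899768-8901900 at 2132 bp, the former open in 33.01% of cells and the latter in 83 cells. Among the isolated regions 6 had a neighbour on 1 side only, at a chromosome's first or last region.

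Isolated regions were spread over all 19 autosomes and made up the largest fraction where the table is sparsest. Chromosome 14, with 6.98 regions per Mb, had 36 isolated regions, or 4.27 per 100 regions. Chromosome 11, with 14.96 regions per Mb, had 21, or 1.18 per 100. Chromosomes 15 and 3 followed chromosome 14 with 3.44 and 3.40 per 100, and chromosomes 9 and 7 lay just above chromosome 11 with 1.37 and 1.39. By number, chromosome 1 had the most with 47 (8.87% of all) and chromosome 19 the fewest with 14. Per 100 Mb of spanned chromosome the numbers ran from 14.1 on chromosomes 7 and 9 to 32.9 on chromosome 15. Over the 19 chromosomes, isolated regions per 100 regions and regions per Mb had a Pearson correlation of -0.76 and a Spearman correlation of -0.85. Both quantities share the number of regions on the chromosome and isolation is defined by spacing, so this relation is a description of the rule.

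**Figure D1:**
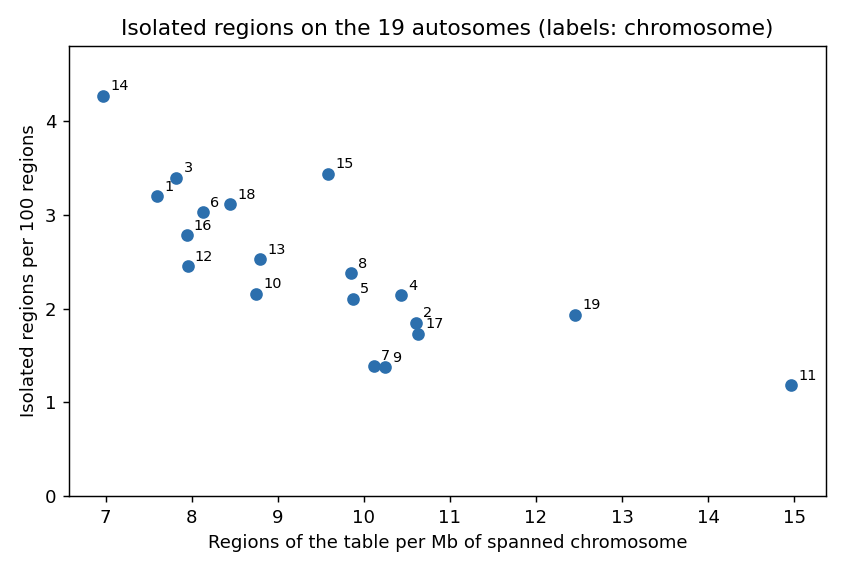
Isolated regions per 100 regions of the table (vertical axis) against regions per Mb between a chromosome's first and last region (horizontal axis); each point is 1 of the 19 autosomes, labelled by its number. Chromosome 14 lies at the top left with 4.27 per 100 and chromosome 11 at the bottom right with 1.18 per 100, while chromosome 15 has 3.44 per 100 at 9.58 regions per Mb.

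At the same share of open cells, isolated regions were mostly wider than other regions. Their median width was 791.5 bp (quartiles 592 and 1086 bp), against 744 bp for the others and 696 bp for the others weighted to the same shares. Since width goes with the share of open cells over the whole table, each isolated region was set against all other regions in its own class of open cells, classes being 5 cells wide. Then 65.1% of the isolated regions were wider than their class median and 34.9% narrower, where the other regions divide evenly by construction. The median isolated region was 1.15 times as wide as its class median.

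The medians lay apart among rarely open regions and side by side among the most widely open ones. For regions open in 7.47% to 8.43% of cells the median width was 575 bp for 89 isolated and 511 bp for 3106 other regions. Between 8.67% and 10.8% the medians were 691 and 583 bp, between 11.1% and 15.7% they were 893 and 695 bp, and between 15.9% and 24.1% they were 983 and 842 bp. Above 24.3% they were 989 bp for 69 isolated and 1007 bp for 4797 other regions. On 17 of the 19 chromosomes a larger percentage of isolated than of other regions of that chromosome was wider than the class median. The mean excess was 14.02 percentage points, with an SD of 11.3 over chromosomes, nearly as large as the excess. That SD includes the counting of 14 to 47 isolated regions per chromosome, so differences between chromosomes are at most part of it.

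**Figure D2:**
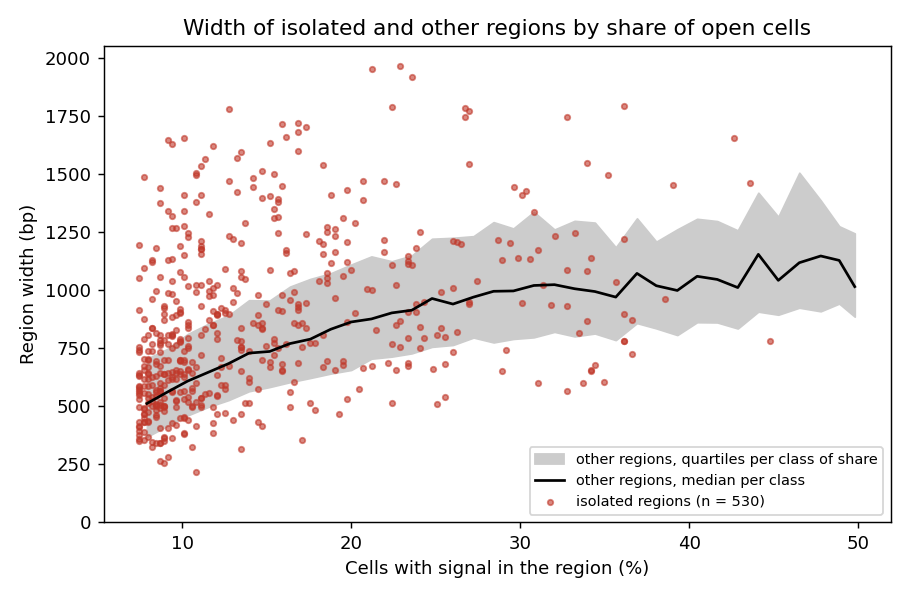
Width in bp (vertical axis) against the percentage of cells with signal (horizontal axis); red points are the 530 isolated regions, the line is the median and the band the quartiles of other autosomal regions in each class of open cells. Most isolated regions open in under 25% of cells lie above the line, and those open in more cells lie on both sides of it.

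The widest isolated region was chr10:26093944-26095906, with 1962 bp against a class median of 901 bp. It was open in 95 cells (22.9%, 18.9% to 27.2%) and held up to 7.14 fragments in a cell. It was followed by chr8:61390633-61392584 (1951 bp, 88 open cells, up to 2.78 fragments) and chr4:104039648-104041563 (1915 bp, 98 open cells, up to 3.70 fragments). The narrowest was chr9:84237399-84237615, with 0.216 kb against a class median of 0.608 kb, open in 45 cells. Next were chr11:48062884-48063138 (0.254 kb, 37 open cells) and chr14:125069026-125069289 (0.263 kb, 36 open cells), the latter the last region of the table on chromosome 14.

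Among autosomal regions within the width and share limits, median width increased with the gap to the nearest region. Weighted to the shares of the isolated regions, the median width was 625 bp for regions with another region within 10 kb. It was 719 bp where the nearest lay between 10 and 50 kb away, 740 bp up to 100 kb and 763 bp up to 250 kb. It was 786 bp for the 70.4% of isolated regions with a nearest gap up to 500 kb and 809 bp for the 29.6% with a larger one. The sources used here give no settings for calling or merging regions, and their part in the width was not tested.

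To ask whether isolated regions depend on the kind of cell, cells were divided into 3 clusters by their open regions, leaving out 1 cell with under 1000 fragments. This was done separately with odd-numbered and even-numbered autosomes, and each region was read in the clusters made without its own chromosome. Both divisions put 93.2% of the cells alike. With all autosomes, cluster 1 held 46.1% of the cells, cluster 2 held 27.3% and cluster 3 held 26.6%. Their median depths were 3628, 4778 and 3699.5 open regions. The clusters were not named, since no marker genes could be placed on the table.

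For each region the percentage of open cells in a cluster was divided by the percentage expected from cell depth and compared with the same quantity in the remaining cells. The region was called higher or lower if these lay at least 2-fold apart with exact 95% intervals that did not meet. By this rule 39.4% of the isolated regions differed in at least 1 cluster, where the background over all autosomal regions was 27.8%. Since a rarely open region can pass a fold limit more easily than a widely open one, the count was also set against the other regions weighted to the same shares of open cells, of which 32.1% differed. After cells had been thinned to 1500 open regions each, with 32 shallower cells left out and the same 2-fold limit on observed shares, 14.2% of isolated and 12.3% of same-share regions differed. Counts of regions under a rule of this kind are not a test.

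The excess was largest in 2 of the 6 directions. In cluster 3, 20.6% of the isolated regions were lower, against 12.7% of same-share regions and a background of 11.7%. In cluster 2, 77 (14.5%) were higher, against 8.53% of same-share regions and a background of 7.43%. Both percentages fell in other settings: in the thinned cells 2.08% of isolated and 1.68% of same-share regions were lower in cluster 3, and 6.42% and 2.89% were higher in cluster 2. If open meant over 1 fragment, 2.45% and 0.928% were lower in cluster 3, and 4.14% and 2.41% higher in cluster 2. Cells were clustered anew for this setting, and the clusters matched the others only in part (adjusted Rand index 0.495, where 1 is full agreement). The opposite directions held 43 regions higher in cluster 3 (8.11%, same share 11.3%, background 9.29%) and 20 lower in cluster 2 (3.77%, same share 5.41%, background 4.43%). In cluster 1, 34 were higher (6.42%, same share 5.67%, background 4.84%) and 42 lower (7.92%, same share 8.89%, background 7.34%), so the values for isolated and other regions lay close together there. The overlap of both main directions is partly built in, since cells of cluster 3 are among the comparison cells of cluster 2.

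Single regions carried these calls in different combinations. Of the isolated regions 18.3% differed in 2 or more clusters, against 16.6% of same-share regions and a background of 14.1%. Single combinations were not counted among other regions, so the numbers below are a description. Of the regions with a call, 51 were lower in cluster 3 and passed in no other cluster, 36 were higher in cluster 2 and lower in cluster 3, and 26 were higher in cluster 2 with no other call. A further 15 were higher in cluster 1 and lower in cluster 3, and 18 were higher in cluster 1 with no other call. Among the regions higher in cluster 3, 13 had no other call, 13 were also lower in cluster 1, 12 lower in both other clusters and 5 lower in cluster 2.

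With all shares matched, the percentage lower in cluster 3 followed the distance to the nearest region. It was 12.1% for regions with another within 10 kb and 11.8% where the nearest lay between 10 and 50 kb away. It was 14.2% up to 100 kb and 17.4% up to 250 kb, then 20.6% for isolated regions with a nearest gap up to 500 kb and 21.4% for those with a larger one. The percentage higher in cluster 2 went the same way, from 7.21% and 8.25% in the closest classes through 9.93% and 12.4% to 14.6% and 14.9%. The percentage higher in cluster 3 was 11.6% in both of the closest classes and 8.19% and 8.53% in the isolated ones. In cluster 1 the percentages stayed within 5.31% to 7.07% for higher and 7.94% to 9.12% for lower regions.

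**Figure D3:**
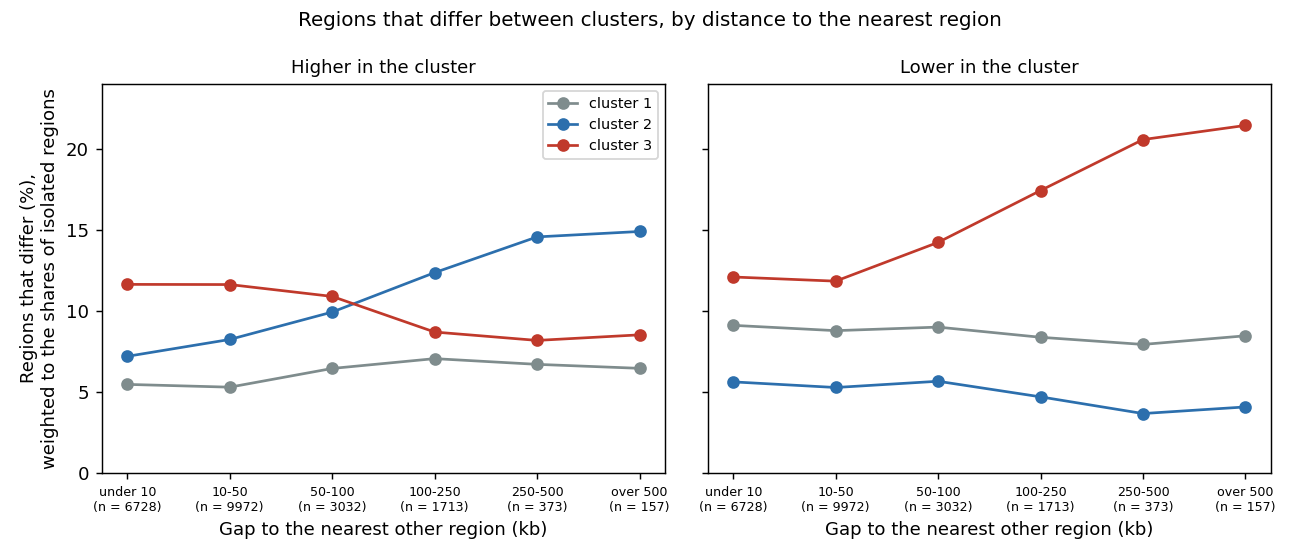
Percentage of regions higher (left) and lower (right) in each cluster than in all other cells, weighted to the shares of open cells of the isolated regions (vertical axis), in 6 classes of the gap to the nearest other region in kb (horizontal axis, with the number of regions). The red line of regions lower in cluster 3 runs from 12.1% to 21.4% and the blue line of regions higher in cluster 2 from 7.21% to 14.9%; the last 2 classes are the isolated regions.

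Both percentages were larger for isolated regions in each band of share. In the 5 bands of share used for width above, from the rarest regions up, 17.98% of isolated and 9.30% of other regions were lower in cluster 3, then 20.98% and 13.9%, 23.5% and 17.8%, 25.5% and 13.95%, and 10.1% and 3.42%. Higher in cluster 2 were 17.98% against 10.1%, 23.1% against 11.4%, 15.97% against 11.4%, 7.27% against 5.33%, and 1.45% against 0.605% in the same order. The last band holds 69 isolated regions, so its percentages, 1.45% above all, rest on very few of them. Regions were also matched for share and for being narrower than their class median or not. The same-share percentages were then 12.3% lower in cluster 3 and 8.23% higher in cluster 2. Width was not matched any finer, and its part in the excess was not tested.

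Chromosomes varied around these values. The percentage lower in cluster 3 exceeded that of same-share regions of the same chromosome on 14 of the 19 chromosomes, with a mean excess of 7.0 percentage points and an SD of 8.64. The percentage higher in cluster 2 exceeded it on 17 chromosomes, by a mean of 6.29 points with an SD of 8.20. On chromosome 11, 38.1% of 21 isolated regions were higher in cluster 2, where same-share regions gave 6.76%. On chromosome 16, with 21 isolated regions as well, 4.76% were lower in cluster 3, where same-share regions gave 10.8%. With 14 to 47 isolated regions per chromosome, single chromosomes rest on few regions.

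Summed over all isolated regions, cells of cluster 3 had fewer of them open than their depth predicts. The 530 regions gave 6907 open values in cluster 3, or 0.849 of the expected number, 11911 in cluster 2, or 1.09 times the expected number, and 14077 in cluster 1, or 1.02 times. Same-share regions gave 1.003 in cluster 3, 1.01 in cluster 2 and 0.993 in cluster 1. The sums need no fold limit per region and have the same order as the counts. They use the same regions, cells and clusters, so that order is no separate support. Because expected values were fitted to the totals, isolated regions gave 0.9999 over all clusters together. A low value in 1 cluster therefore goes with higher ones elsewhere, and same-share values are held near 1.

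Cells carry numbers in their titles, without a stated meaning, and the sums were repeated in 4 consecutive sets of these numbers. In cluster 3, isolated regions were open at 0.820, 0.829, 0.948 and 0.871 of the expected number from the lowest to the highest set. The 2 sets with the highest numbers hold at most 16 cells of cluster 3 each, and the 2 with the lowest at least 38 each. In cluster 2 the values were 1.06, 1.08, 1.13 and 1.08. Same-share regions lay between 0.979 and 1.01 in every set and cluster, largely because of the fit to totals. Cluster 3 was therefore below and cluster 2 above the same-share value in each of the 4 sets.

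**Figure D4:**
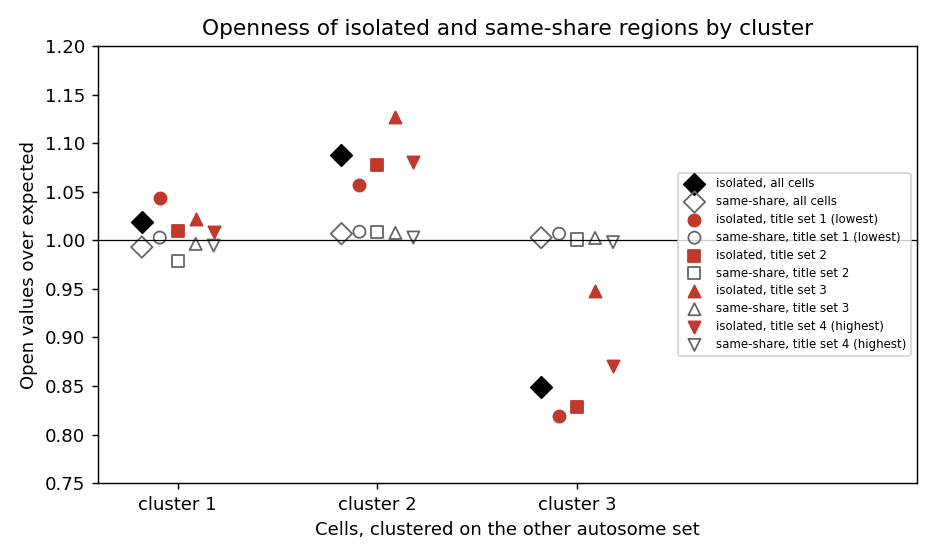
Open values over the number expected from depth (vertical axis) in each cluster of cells (horizontal axis), summed over isolated regions (filled) and over same-share regions (open); diamonds are all cells and the other symbols the 4 sets of consecutive title numbers. Filled symbols lie between 0.820 and 0.948 in cluster 3 and between 1.06 and 1.13 in cluster 2. Open symbols stay near 1, largely because expected values were fitted to the totals.

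Cell by cell, the median number of open isolated regions was 69 and the lowest 10, and they made up 0.656% to 2.90% of a cell's open autosomal regions (median 1.85%). Over the expected number, cells ranged from 0.360 to 1.59. The median was 0.829 in cluster 3 (quartiles 0.726 and 0.943), 1.01 in cluster 1 (0.892 and 1.13) and 1.09 in cluster 2 (0.979 and 1.19). In cluster 3, 94 of 110 cells (85.5%) were below 1, against 47.6% in cluster 1 and 30.1% in cluster 2. The ranges of the 3 clusters overlap widely. These clusters were made on all autosomes, isolated regions included, so the values are a description.

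**Figure D5:**
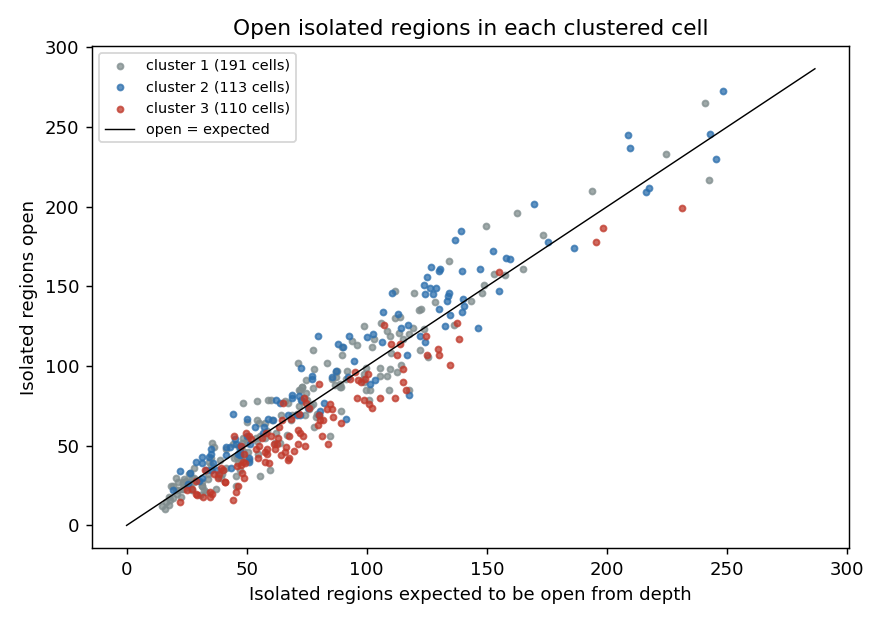
Isolated regions open in a cell (vertical axis) against the number expected from the cell's depth and the regions' frequencies (horizontal axis); each point is 1 clustered cell, coloured by cluster, and the line marks equality. Cells of cluster 3 lie mostly below the line, with a median ratio of 0.829, and cells of cluster 2 mostly above it, with a median of 1.09.

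Depth itself acted on isolated regions much as on other regions. With cells divided by depth into 4 classes of equal size, an isolated region was open in 5.73% of the shallowest cells on average and a same-share region in 5.89%. In the next classes the values were 10.3% and 10.7%, then 16.3% and 16.4%. In the deepest cells they were 27.6% and 27.1%. Cluster 2 was also the deepest cluster, and the part of the slightly steeper rise with depth in its excess was not tested.

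Cluster 3 had the isolated regions with the largest ratios. The region chr13:11546581-11546945 had signal in 32 cells of cluster 3 (28.8%, 20.6% to 38.2%) as against 5 of the rest (1.65%, 0.538% to 3.81%), which is a depth-scaled ratio of 18.95 (7.33 to 62.3, the range allowed by counting). It was also the isolated region with the smallest ratio in cluster 1, where 2 cells were open (1.06%, 0.128% to 3.77%), a ratio of 0.083 (0.0097 to 0.323). It lies 354.5 and 651.2 kb from its neighbours and spans 0.364 kb. The region chr14:90034493-90034925 was open in 26 cells in cluster 3 (25.2%, 17.2% to 34.8%) and 6 others (1.93%, 0.711% to 4.15%), a ratio of 14.04 (5.65 to 41.7). Its gaps are 1163 and 3991 kb. The third, chr8:5093946-5094327, was open in 34 cells there (33.01%, 24.1% to 42.97%) and 8 others (2.57%, 1.12% to 5.01%), a ratio of 13.7 (6.24 to 34.3). All 3 were narrower than their class medians.

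The smallest ratio in cluster 3 belonged to chr1:8903778-8904277. It was open in 1 cell there (0.901%, 0.0228% to 4.92%) and in 43 others (14.2%, 10.5% to 18.6%), a ratio of 0.0687 (0.0017 to 0.404). In cluster 2 the same region was open in 20.2% of cells (13.2% to 28.7%) and in 7.0% of the rest (4.39% to 10.5%), which missed the rule because the depth-scaled intervals overlapped.

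In cluster 2 the largest ratio was that of chr1:112344170-112344754, open in 26 cells there (22.8%, 15.5% to 31.6%) and 5 others (1.67%, 0.543% to 3.85%). The depth-scaled ratio was 10.1 (3.81 to 33.6) and the observed one 13.7. It was followed by chr18:79584461-79584867, open in 30 cells (27.5%, 19.4% to 36.9%) against 6 others (1.97%, 0.725% to 4.23%), a ratio of 9.77 (4.00 to 28.7). The region chr1:81228243-81229009 was open in 30 cells there (26.3%, 18.5% to 35.4%) against 8 others (2.67%, 1.16% to 5.19%), a ratio of 7.29 (3.27 to 18.4). Each of the 3 was lower in both other clusters by the rule. The smallest ratio was 0.0571 (0.0014 to 0.340) at chr1:151575682-151576226, open in 1 cell of cluster 2 and 34 others. That region was open in 24 cells in cluster 3 (21.6%, 14.4% to 30.4%), a ratio of 6.46 there (3.05 to 14.6).

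Ratios in cluster 1 were smaller. Both chr14:97728975-97729527 and chr16:9600318-9600955 were open in 26 cells there (12.9%, 8.58% to 18.3%) and 7 others (3.30%, 1.34% to 6.68%), a ratio of 5.02 (2.12 to 13.7). They were open together in 3 cells. The region chr1:143033454-143034147 was open in 26 cells (13.8%, 9.19% to 19.5%) and 9 others (4.00%, 1.85% to 7.46%), a ratio of 4.20 (1.91 to 10.2). All of these were chosen for extreme ratios out of 530, which biases the ratios away from 1. The regions with the highest ratios were open in 31 to 42 cells, close to the table's smallest number of 31. A region this rare may stand in the table only through the cluster where it is high, so these ratios are a description.

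The calls of an isolated region and of its nearest neighbour, over 250 kb away, were compared next. Of the 77 isolated regions higher in cluster 2, the nearest region was also higher there for 12 (15.6%), while 13.4% of the regions nearest to any isolated region were. Of the 43 higher in cluster 3 this held for 3 (6.98%, over all nearest regions 7.36%), and of the 34 higher in cluster 1 for 2 (5.88%, over all 4.91%). For other regions, whose nearest region lies closer, the corresponding percentages were 19.8% in cluster 2 (over all 7.32%), 21.9% in cluster 3 (9.97%) and 13.1% in cluster 1 (5.04%). Of the isolated regions lower in cluster 3, 29 (26.6%) had a nearest region that was lower too, against 17.9% over all nearest regions, and for other regions the values were 23.8% and 11.8%. Of the 42 lower in cluster 1 this held for 4 (9.52%, over all nearest regions 8.49%), and of the 20 lower in cluster 2 for 0 (over all 3.96%), with 15.9% and 8.35% for other regions (over all 7.89% and 4.66%). The cluster with the highest ratio was the same in an isolated region and its nearest region in 39.4% of cases, where the frequencies of the clusters alone give 34.8%. For regions with another within 10 kb these were 45.3% and 33.6%. Where the nearest region is itself isolated the pair was counted from both sides.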

How the data were processed

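Single-cell ATAC-seq signal was analysed for 415 cells of 1 group. The deposited table gives signal, a whole number per region and cell. Of the values above 0, 37.6% equal 148 and 51.1% are multiples of 74, so 148 was taken as 1 fragment, as for 1 pair of reads of 74 bases. This unit was inferred. MACS2, a peak caller, and the mouse build mm9 are named in the submitters' processing notes. The sources used here give no aligner, no treatment of duplicates and no rule by which regions were selected. No count model was used, since the values are not read counts.

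Expected openness was 1 − exp(−region rate × cell rate), with rates fitted to the observed row and column totals of open values. Depth ran from 791.1 to 25069 fragments per cell. Clusters came from TF-IDF weights of the open values (scale 10000), singular value components 2 to 10 and k-means with 50 starts. Same-share values average all other regions in classes 5 open cells wide with at least 20 such regions, weighted by isolated regions per class. Python 3.11.15, numpy 2.4.6, scipy 1.17.1 and scikit-learn 1.9.0 were used. The calls were tried on simulated data, and the width comparison on regions whose widths were changed by a known factor. The outcomes are not reported here. Regions named in the text were the 5 open in most cells, the 3 most remote, the 3 widest and narrowest, the 3 highest and the lowest ratio per cluster, and those next to each limit. The members, the 3 clusters and the lists were chosen with earlier results of these data known. Alternatives covered distance, limits, openness, depth, matching and clustering.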

Additional observations from a re-analysis of the deposited data

Results flagged for a closer look

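The rule keeps to autosomes. On chromosome X, 56 further regions met the same distance, width and share limits, which is 11.2% of its 499 regions. They were open in 7.47% to 37.8% of cells (median 12.5%), where a count of 0 would allow up to 0.723%, and had a median width of 864.5 bp. They entered no comparison above.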

How the results depend on the processing

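Isolated regions numbered 2.34 per 100 autosomal regions, and 9.89 at a distance of 100 kb, 0.692 at 500 kb and 1.53 with at least 10% of cells open. The median share of open cells was 15.9% with that last filter, 2.89% if open meant over 1 fragment and 17.8% in cells of at least median depth. The percentage narrower than same-share regions was 30.6% at 500 kb and 24.2% against regions with another within 10 kb. It was below the same-share value in all 9 alternatives run. The percentage differing in at least 1 cluster was 33.8% with at least 10% of cells open, 11.5% with more than 1 fragment, 28.1% in the deeper cells, 27.7% with 2 clusters, 29.8% with the first component kept, 47.4% on observed shares, 14.2% after thinning (2-fold on observed shares, 32 cells left out) and 57.9% by fold alone. In the cells with the lower and in those with the higher title numbers, of equal number, an alternative chosen after seeing the data, it was 28.1% and 16.04%. The percentage differing exceeded the same-share percentage in all 19 alternatives, by 1.14 to 1.31 times. Higher in cluster 2 and lower in cluster 3 did so in all 17 alternatives with 3 clusters, by 1.36 to 2.22 and 1.23 to 2.64 times. Beside the values given in the report, the percentage lower in cluster 3 was 8.87% (same share 5.78%) in the deeper cells, 12.1% (7.70%) and 2.08% (0.903%) in cells with lower and higher title numbers, 25.1% (15.2%) on observed shares and 43.02% (26.9%) by fold alone. The percentage higher in cluster 2 was 10.4% (7.68%) with at least 10% of cells open, 11.1% (6.6%) in the deeper cells, 10.8% (6.18%) and 6.23% (3.54%) by title number, 4.53% (3.16%) with the first component kept, 26.8% (14.9%) on observed shares and 18.7% (10.6%) by fold alone. With the first component kept, clusters matched the others poorly (adjusted Rand index 0.370). The index was 0.495 if open meant over 1 fragment and 0.925 in the deeper cells, where cells were also clustered anew. With 1 sample, leaving out a replicate was not possible, and all intervals cover counting only.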
